A study of Mus musculus with 18 samples.

Results

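The 10 genes described here encode the calcium channels and the calcium sensor on which the messengers made by CD38 and their neighbouring pathways act. They are Trpm2, Ryr1, Itpr1, Itpr2, Itpr3, Orai1, Stim1, Tpcn1, Tpcn2 and Mcoln1, chosen by name among the 55450 genes of the deposited table, each with 1 gene ID. CD38 consumes NAD and makes cyclic ADP-ribose, ADP-ribose and, in acidic compartments, NAADP. Cyclic ADP-ribose sensitizes ryanodine receptors of the endoplasmic reticulum (ER), ADP-ribose opens TRPM2 in the plasma membrane, and NAADP acts on the TPC channels of endosomes and lysosomes. The IP3 receptors release the same ER store after phospholipase C signalling, STIM1 senses when that store is empty, and ORAI1 then admits calcium from outside the cell. Macrophages use these routes in phagocytosis, migration and cytokine release.

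The cells were macrophages grown from bone marrow (BMDMs) of WT mice or of mice lacking CD38 (CD38KO), of either sex and on the C57BL6/J background. Marrow cells of all groups grew for 7 days with L929-conditioned medium, received GM-CSF for 24 hours (20 ng/ml), and were then kept for 6 hours in medium with 1% serum. WT cells were non-treated or given MSU, apigenin or both, and CD38KO cells were non-treated or given MSU, which made 6 groups of 3 RNA-seq libraries. MSU stands for monosodium urate crystals at 0.2 mg/ml, the crystals of gout, and apigenin, a plant flavone that inhibits CD38, was given at 25 µM. CD38KO BMDMs with apigenin were not among the groups, so an action of apigenin apart from CD38 cannot be told apart from one through CD38. The study calls its replicates biological, and the labels do not say which came from separate mice or cultures, so the p-values measure the spread between these libraries. Which of the 6 libraries with apigenin also had MSU is given differently in their titles and in a treatment tag, and the titles were followed.

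Total counts per library ran from 51058336 to 83209648. Cd38 itself lay at 18.5 to 93.4 CPM (counts scaled to library size with TMM factors) in the 12 WT libraries and at 0.303 to 1.17 CPM in the 6 CD38KO libraries. Without MSU, apigenin raised Cd38 RNA from 21.1 ± 3.89 to 68.3 ± 9.16 CPM (mean ± SD, n = 3). Its log2 fold change was 1.69 (Benjamini-Hochberg adjusted p = 0.00142, edgeR). Under MSU the log2 fold change of Cd38 with apigenin was 0.58 (adjusted p = 0.172, edgeR). All 8 macrophage markers checked were detected, with a summed level of 11453.5 CPM or more in every library. WT replicates 1 and 2 stood apart from WT replicate 3 in Ifi202b, a gene chosen after its values were seen, at 8.08 to 152.9 CPM against at most 0.196 CPM, and the CD38KO libraries resembled replicate 3 at up to 0.207 CPM. The 6 apigenin libraries had TMM factors of 0.666 to 0.837 against 1.06 to 1.32 in the other 12, and 9.60% to 13.3% of their counts came from mitochondrial genes against 3.50% to 6.61%.

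Per length, the channel genes spanned a wide range of levels in resting WT BMDMs. Tpcn1 was listed at 12.3 ± 3.37 FPKM (mean ± SD, n = 3), where FPKM counts fragments scaled for transcript length and depth, Orai1 at 11.7 ± 5.40 FPKM and Tpcn2 at 10.2 ± 4.30 FPKM, and these did not differ beyond their spread. Mcoln1 at 4.64 ± 0.104 FPKM, Stim1 at 3.72 ± 0.616 FPKM and Itpr2 at 1.83 ± 0.304 FPKM followed, and from Mcoln1 downwards no gene overlapped its neighbour in the order. Itpr3 at 1.02 ± 0.0766 FPKM was the lowest gene that passed the expression filter, which asked for 3 or more libraries with an FPKM of 1 or higher. Itpr1 at 0.630 ± 0.258 FPKM, Trpm2 at 0.271 ± 0.0879 FPKM and Ryr1 at 0.117 ± 0.0285 FPKM stayed under it. These 3 have long transcripts and were nevertheless read in every library, Ryr1 with 55 to 437 counts, Trpm2 with 33 to 800 counts and Itpr1 with 248 to 1156 counts. They were therefore tested in a fit of the 17865 genes kept by edgeR's filterByExpr, and the other 7 in the fit of the 12025 genes that passed the FPKM filter.

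**Figure D1:**
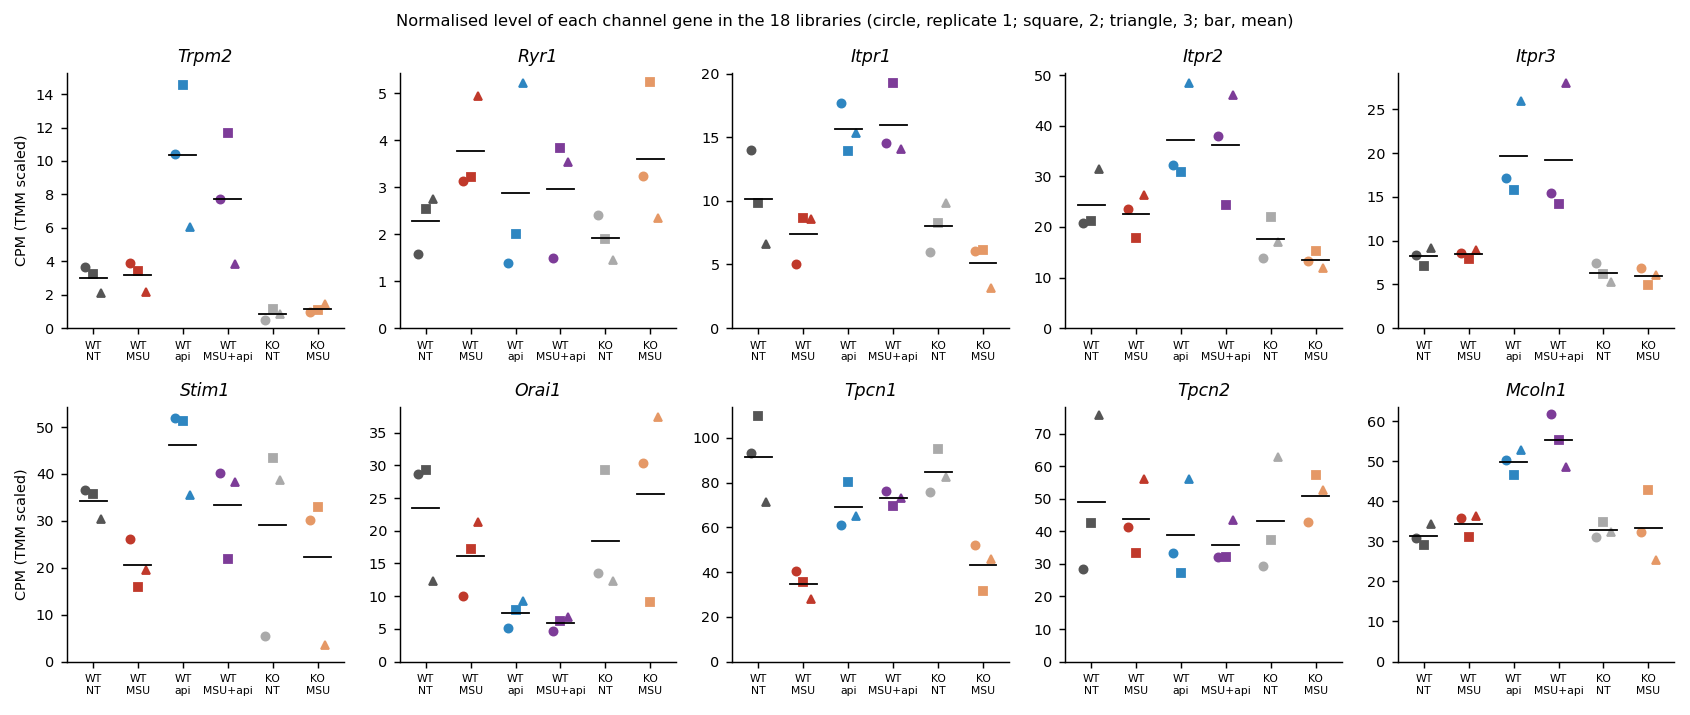
Normalised level (CPM, linear axis from 0) of each of the 10 channel genes in the 18 libraries, by group, with symbols for the replicate number and a bar at the mean of 3 libraries. The 3 WT + MSU libraries of Tpcn1 lie between 27.9 and 40.3 CPM, under all 3 WT non-treated libraries, and the 6 CD38KO libraries of Trpm2 lie between 0.480 and 1.45 CPM.

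Of the 7 genes in the FPKM-filtered fit, 1 passed a Benjamini-Hochberg adjusted p of 0.05 for MSU in WT BMDMs, where 7.02% of all 12025 genes passed, and 1 passed for MSU in CD38KO BMDMs, where 3.17% did. Both times it was Tpcn1. Apigenin without MSU moved 3 of the 7, beside 50.8% of all genes, and apigenin under MSU moved 5 of the 7, beside 58.8% of all genes. Most genes changed with apigenin, so these shares lie near the background and are not a result about the channels. For CD38KO against WT, edgeR passed 0 of the 7 without MSU, where 4.91% of all genes passed, and 0 of the 7 under MSU, where 4.43% did. An unadjusted p under 0.05 was reached by 0 and by 1 of them, and DESeq2 and limma passed 0 in both comparisons. MSU in apigenin-treated cells passed 0 of the 7 with edgeR, with DESeq2, with limma and at an unadjusted p under 0.05, beside 0.0582% of all genes. The interaction of MSU with apigenin passed 1 of the 7, Tpcn1, beside 1.31% of all genes. The interaction of MSU with CD38KO passed 0 of the 7 with edgeR, with DESeq2, with limma and at an unadjusted p under 0.05, and edgeR passed 0% of all genes, 427 of which had an unadjusted p under 0.05, 20 passed with DESeq2 and 1 with limma.

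Of the 3 low genes, apigenin moved 1 without MSU and 2 under MSU, beside 34.6% and 41.8% of the 17865 genes. CD38KO against WT moved 1 of the 3 without MSU, beside 4.23% of genes. Under MSU the same comparison passed 0 of the 3, beside 2.7% of genes, with 1 at an unadjusted p under 0.05, 1 by DESeq2 and 0 by limma. The remaining comparisons passed 0 of the 3 with edgeR, DESeq2 and limma and at an unadjusted p under 0.05. Of all genes they passed 3.29% for MSU in WT, 1.61% for MSU in CD38KO, 0.0728% for MSU with apigenin, 0.537% for the interaction with apigenin and 0.0056% for that with CD38KO.

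**Figure D2:**
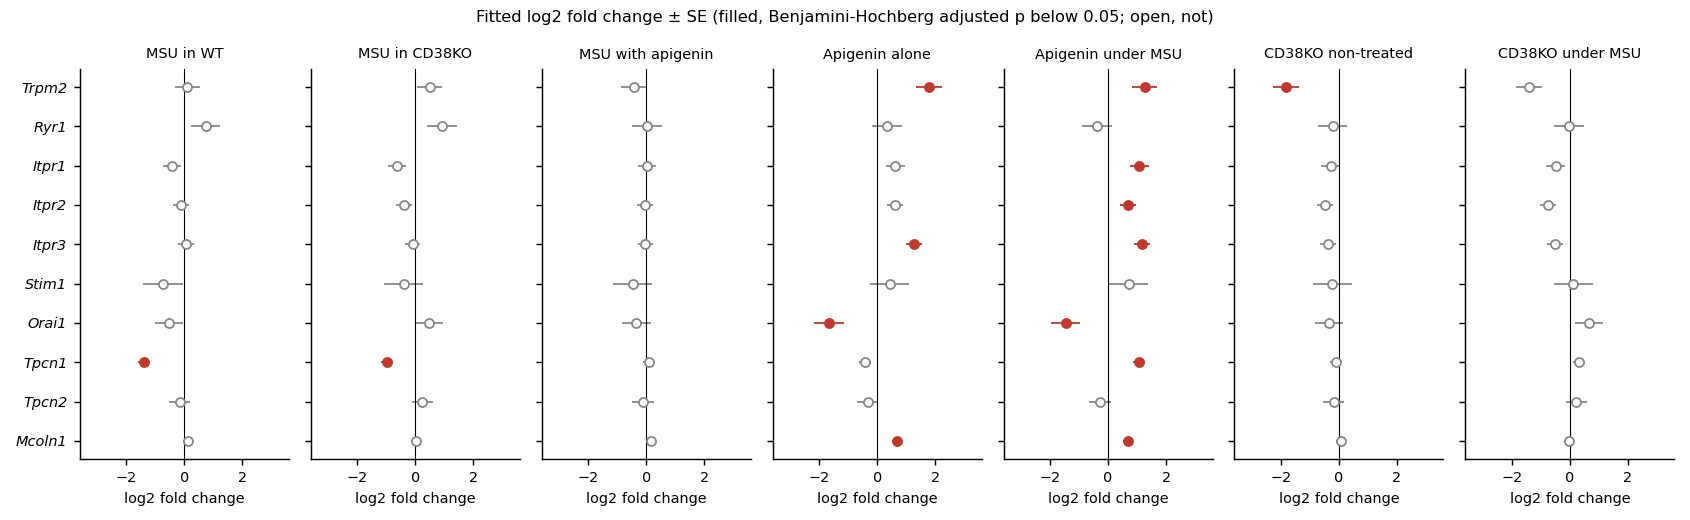
Fitted log2 fold change with its SE for the 10 channel genes in 7 comparisons, filled where the adjusted p was below 0.05 and open elsewhere. Tpcn1 is the filled point under MSU in WT (-1.40) and in CD38KO (-0.97), Trpm2 is the filled point for CD38KO non-treated (-1.82), and most filled points belong to the apigenin comparisons.

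Trpm2, the plasma membrane channel that ADP-ribose opens (gene ID ENSMUSG00000009292, chromosome 10, 77907722 to 77970563 on the minus strand of GRCm38 in GENCODE M21), was lower in CD38KO than in WT BMDMs at rest. The WT non-treated libraries had 3.65, 3.22 and 2.12 CPM, and the CD38KO non-treated libraries 0.480, 1.16 and 0.828 CPM. All 3 CD38KO libraries lay under all 3 WT libraries, with counts of 33 to 88 against 182 to 317. The log2 fold change was -1.82 ± 0.45 (SE), a level 3.52-fold lower, with an adjusted p of 0.0292 (edgeR). Under MSU, WT libraries had 3.91, 3.39 and 2.18 CPM and CD38KO libraries 0.934, 1.06 and 1.45 CPM. The groups again did not overlap, with a log2 fold change of -1.41 ± 0.44, but the adjusted p of 0.101 missed the threshold. This comparison passed in 2 of 29 alternative settings. They were DESeq2 (-1.44, adjusted p = 0.0177) and edgeR with only replicates 1 and 2 of the WT groups (-1.61, adjusted p = 0.0268).

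The lower Trpm2 of CD38KO BMDMs stood beside sums of neutrophil and fibroblast markers that were lower than in WT replicates 1 and 2. The 8 neutrophil markers on the list, all of them in the table, summed to 8.80 to 22.6 CPM in the 6 CD38KO libraries and to 150.4 to 327.1 CPM in WT replicates 1 and 2, while WT replicate 3 had 8.44 to 25.0 CPM. Retnlg, a marker of mature neutrophils, had no counts in the CD38KO libraries or in WT replicate 3 and at most 0.422 CPM elsewhere. Ly6g, another defining marker, had no counts in the CD38KO libraries and in 3 of the 4 WT groups, both groups of WT without apigenin included. The 6 fibroblast markers summed to 82.5 to 316.4 CPM in CD38KO and to 574.3 to 6703.75 CPM in WT. In WT replicate 3 Trpm2 stood at 2.12 CPM without and 2.18 CPM with MSU, above every CD38KO library, and with this 1 WT library per group the log2 fold change at rest was -1.37, a value with too few WT libraries for its p to bear on the call. With the compared groups alone the log2 fold change was -1.88 and the adjusted p 0.0767, and with limma on log2(FPKM + 0.5) they were -0.44 and 0.277. Leaving out single libraries ended the call in 4 of 18 fits, those without WT non-treated replicate 1 (adjusted p = 0.114) or 2 (0.0901) and those without CD38KO non-treated replicate 1 (0.150) or 3 (0.114). In bulk RNA, fewer cells of a type and less RNA per cell cannot be told apart, and the part of other cells in the Trpm2 difference was not tested.

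**Figure D3:**
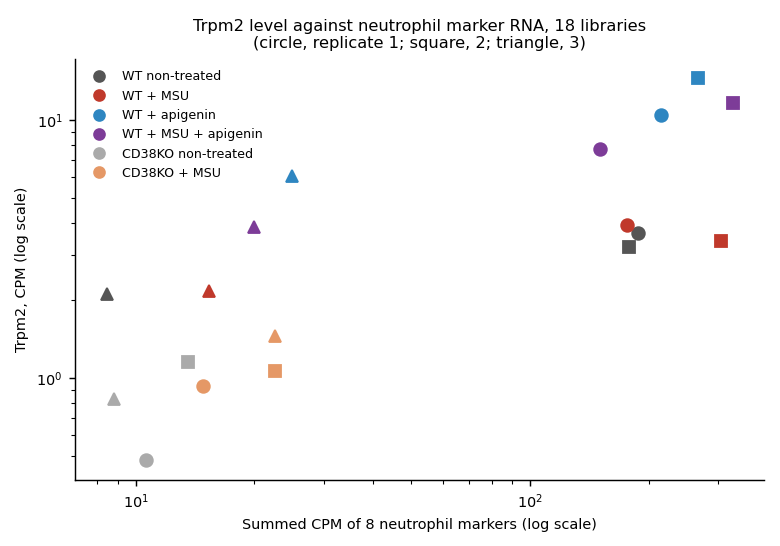
Trpm2 level against the summed level of 8 neutrophil markers in the 18 libraries, both in CPM on log axes, coloured by group with symbols for the replicate number. WT replicates 1 and 2 sit at 150.4 CPM of neutrophil markers or more, and WT replicate 3 sits beside the CD38KO libraries on that axis but above them in Trpm2, at 2.12 CPM or more against at most 1.45 CPM.

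Apigenin raised Trpm2 in the WT cells, with 10.4, 14.5 and 6.07 CPM against 3.65, 3.22 and 2.12 CPM without it. The groups did not overlap and the log2 fold change was 1.79 ± 0.44, with an adjusted p of 0.00528, or 0.49 with an adjusted p of 0.0597 by limma. Under MSU the libraries with apigenin had 7.71, 11.7 and 3.85 CPM, the lowest of which fell just below WT + MSU replicate 1 at 3.91 CPM. The log2 fold change there was 1.26 ± 0.44, with an adjusted p of 0.0292, and the call ended on leaving out WT + MSU replicate 2 (adjusted p = 0.0660) or 3 (0.115), or, with MSU and apigenin, replicate 1 (0.0589) or 2 (0.162). MSU by itself gave a log2 fold change of 0.09 ± 0.43 in WT and 0.50 ± 0.44 in CD38KO, and neither passed.

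Ryr1, the ryanodine receptor best known from skeletal muscle and a target of cyclic ADP-ribose (ENSMUSG00000030592, chromosome 7, 29003344 to 29125179, minus strand), was the lowest of the channels per length in the WT groups, while Trpm2 was lower in the CD38KO groups, and Ryr1 passed in no comparison. WT non-treated libraries had 1.58, 2.54 and 2.74 CPM and WT + MSU libraries 3.12, 3.22 and 4.93 CPM. These groups did not overlap, yet the log2 fold change of 0.73 ± 0.51 had an adjusted p of 0.605. In CD38KO the libraries had 2.40, 1.90 and 1.44 CPM without and 3.23, 5.23 and 2.34 CPM with MSU, which overlap, with a log2 fold change of 0.93 ± 0.51 and an adjusted p of 0.461. The 7 skeletal muscle markers summed to at most 4.66 CPM in any library, and all 7 were without counts in the CD38KO + MSU libraries, which had up to 5.23 CPM of Ryr1.

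Tpcn1, which encodes TPC1, an NAADP-regulated cation channel of endosomes and lysosomes (ENSMUSG00000032741, chromosome 5, 120534153 to 120588673, minus strand), was the channel gene that MSU crystals lowered. WT non-treated libraries had 93.3, 109.9 and 71.4 CPM and WT + MSU libraries 40.3, 35.4 and 27.9 CPM. The groups lay far apart, and the level under MSU was 2.65-fold lower, with a log2 fold change of -1.40 ± 0.21 and an adjusted p of 0.00134. Over all tested genes, 1.84% had a lower log2 fold change. The call held in each of the 18 fits that left out 1 library and in 30 of 31 alternative settings. In WT replicate 3 alone, with 1 library per group, the log2 fold change was -1.35 and the adjusted p 0.255.

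MSU also lowered Tpcn1 in CD38KO BMDMs. The libraries had 76.0, 95.1 and 82.6 CPM without and 51.9, 31.6 and 45.9 CPM with MSU, again without overlap. MSU gave a log2 fold change of -0.97 ± 0.20, a 1.96-fold lower level, with an adjusted p of 0.0203. The call was lost without CD38KO non-treated replicate 2 (adjusted p = 0.0970) or 3 (0.0757) and without CD38KO + MSU replicate 2 (0.0561) or 3 (0.0682). The difference between the MSU responses of the genotypes was 0.43 ± 0.29 on the log2 scale, with a 95% interval of -0.13 to 0.99, and its adjusted p was 1.00. CD38KO and WT did not differ detectably at rest, at -0.11 ± 0.20, or under MSU, at 0.32 ± 0.20.

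In the presence of apigenin, no MSU response of Tpcn1 was detected. The WT + apigenin libraries had 61.2, 80.3 and 65.3 CPM and the WT + MSU + apigenin libraries 76.2, 69.8 and 73.0 CPM, so the groups overlapped. The log2 fold change was 0.08 ± 0.20, with a 95% interval of -0.31 to 0.48. Against MSU alone, apigenin with MSU gave a 2.11-fold higher level, a log2 fold change of 1.08 ± 0.20 with an adjusted p of 0.000421, and the groups did not overlap. The interaction, the MSU response with apigenin minus that without, was 1.49 ± 0.29 with an adjusted p of 0.0218. It kept its sign in 31 of 31 alternative settings, at 1.32 to 1.64, and passed in 21 of them. Single libraries ended the call at adjusted p of 0.0521 to 0.0604, namely WT non-treated replicates 1 and 2, WT + MSU replicate 2, and replicate 1 of WT + apigenin and of WT + MSU + apigenin. Scaled by library totals instead of TMM, the rise with apigenin under MSU was 0.35 ± 0.24 with an adjusted p of 0.235, while the interaction stayed at 1.47 ± 0.35 with an adjusted p of 0.0603. Against WT non-treated, apigenin alone gave a Tpcn1 log2 fold change of -0.41 ± 0.20 with TMM (adjusted p = 0.104, edgeR). It was -1.11 with library totals (adjusted p = 0.00152, edgeR) and -1.01 by limma (0.00185). The part of this level with apigenin alone in the absent MSU response was not tested.

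**Figure D4:**
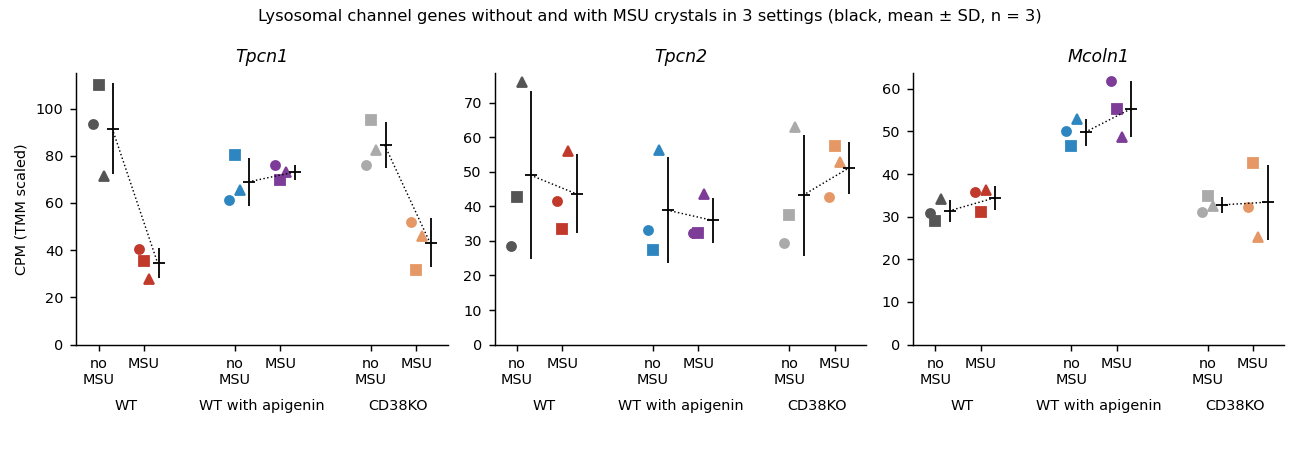
Levels of the lysosomal channel genes Tpcn1, Tpcn2 and Mcoln1 (CPM, linear axes from 0) without and with MSU in WT, in WT with apigenin and in CD38KO, with the mean and SD of 3 libraries in black. Tpcn1 falls from a mean of 91.5 to 34.6 CPM in WT and from 84.6 to 43.2 CPM in CD38KO, while with apigenin the means are 68.9 and 73.0 CPM.

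Tpcn2, which encodes TPC2, the lysosomal relative of TPC1 (ENSMUSG00000048677, chromosome 7, 145186524 to 145284011, minus strand), passed in no comparison. Its WT non-treated libraries already spanned 28.5 to 75.9 CPM. The WT + MSU libraries lay at 33.4 to 56.1 CPM and the CD38KO + MSU libraries at 42.8 to 57.4 CPM, within that span. The log2 fold change for MSU was -0.17 ± 0.37 in WT and 0.24 ± 0.37 in CD38KO, and the 95% interval in WT, -0.88 to 0.55, did not reach the change of Tpcn1. WT replicate 3 had the highest Tpcn2 of each WT group, at 75.9, 56.1, 56.2 and 43.6 CPM.

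Mcoln1 encodes TRPML1, the calcium release channel of lysosomes (ENSMUSG00000004567, chromosome 8, 3500457 to 3515232, plus strand), and was the steadiest of the channels outside the apigenin groups. The non-treated WT libraries had 30.8, 29.0 and 34.2 CPM, those with MSU 35.8, 31.1 and 36.3 CPM, and the CD38KO libraries 25.2 to 42.7 CPM. The MSU response was 0.13 ± 0.17 in WT and 0.03 ± 0.17 in CD38KO on the log2 scale. With apigenin the libraries had 50.2, 46.5 and 52.8 CPM without and 61.7, 55.4 and 48.6 CPM with MSU, above every library without apigenin. Apigenin gave log2 fold changes of 0.67 ± 0.17 (adjusted p = 0.00456) and 0.68 ± 0.17 (adjusted p = 0.00315), and with library totals they were -0.0280 and -0.0219.

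Over the 18 libraries, Lamp1, a protein of the lysosomal membrane, was among the genes whose log2 levels were most like that of Mcoln1 (Pearson's r = 0.946). Lysosomal genes, Mcoln1 among them, are known to carry E-boxes of the sequence CACGTG near their start, which TFEB and its relatives can bind. Tfeb itself fell with apigenin, from 39.1 ± 11.1 to 6.93 ± 3.40 CPM without MSU (log2 fold change -2.49 ± 0.32, adjusted p = 2.74e-05). The 250 bases before the start were searched for CACGTG, which reads the same on both strands, in the 8 channel genes with an entry in the RefSeq promoter table (GRCm38.p6), and Itpr1 and Tpcn1 have none. Mcoln1 held it 2 times and Itpr3 once, and the other 6 did not hold it, beside 6.02% of the 32841 promoters of that length. Lamp1 held CACGTG 4 times. A longer site, CACGTG with fixed bases on either side, was searched as well. It was held by 0 of the 8 channel genes and not by Lamp1, beside 0.241% of the same promoters. With TMM factors Mcoln1, Itpr3 and Lamp1 were higher with apigenin, and so was Trpm2, which did not hold CACGTG. With library totals Mcoln1 was not higher, at log2 fold changes of -0.0280 without and -0.0219 with MSU. Itpr3 then did not pass (adjusted p = 0.0702 and 0.122, edgeR), and neither did Trpm2 (0.0962 and 0.374). The upstream bases of Mcoln1, Itpr3 and Lamp1 are shown with CACGTG in capitals, 5′ to 3′ on the gene's strand.
Mcoln1 (chr8:3500269-3500518, plus strand): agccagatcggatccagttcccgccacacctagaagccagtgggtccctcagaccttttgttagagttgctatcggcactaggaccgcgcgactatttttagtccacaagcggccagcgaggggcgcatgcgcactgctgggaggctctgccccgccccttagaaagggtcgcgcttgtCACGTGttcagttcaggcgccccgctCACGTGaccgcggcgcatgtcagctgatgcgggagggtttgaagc
Itpr3 (chr17:27057054-27057303, plus strand): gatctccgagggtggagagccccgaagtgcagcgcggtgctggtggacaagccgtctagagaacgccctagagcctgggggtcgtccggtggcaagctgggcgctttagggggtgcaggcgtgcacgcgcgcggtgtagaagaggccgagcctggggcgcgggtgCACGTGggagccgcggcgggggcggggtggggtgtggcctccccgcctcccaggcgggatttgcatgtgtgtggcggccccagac
Lamp1 (chr8:13158911-13159160, plus strand): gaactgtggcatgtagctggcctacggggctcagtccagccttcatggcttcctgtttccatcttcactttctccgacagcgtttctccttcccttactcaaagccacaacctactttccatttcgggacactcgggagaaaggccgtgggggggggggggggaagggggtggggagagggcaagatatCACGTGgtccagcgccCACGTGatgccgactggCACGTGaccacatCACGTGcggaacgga
In Mcoln1 the first copy starts 71 bases before the annotated start, in Itpr3 the copy starts 85 bases before it, and in Lamp1 the first starts 61 bases before it. Starts are those of the RefSeq table. For Mcoln1 the bases shown end at 3500518, past the GENCODE M21 start at 3500457, so part of them lies inside the gene in that annotation. A match is a stretch of letters and not a measured binding site. The activity of TFEB was not measured, and its part in the apigenin changes was not tested.

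Of the IP3 receptors, ER channels that open on binding IP3 and calcium, Itpr3 passed with apigenin both without and with MSU, Itpr1 and Itpr2 passed with apigenin in the presence of MSU, and none of the 3 passed for MSU or CD38KO with edgeR and TMM factors. Itpr3 (ENSMUSG00000042644, chromosome 17, 27057304 to 27122223, plus strand) had 8.30, 7.08 and 9.20 CPM in WT non-treated and 17.2, 15.8 and 25.9 CPM in WT + apigenin. Under MSU it had 8.62, 7.90 and 8.91 CPM without and 15.4, 14.2 and 28.0 CPM with apigenin. Neither pair of groups overlapped, and replicate 3 was the highest apigenin library both times. The log2 fold changes were 1.26 ± 0.27 (adjusted p = 0.00160) and 1.18 ± 0.27 (adjusted p = 0.00194). In CD38KO the gene lay at 4.87 to 7.47 CPM, and the log2 fold change against WT was -0.38 ± 0.27 at rest and -0.52 ± 0.27 under MSU.

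Itpr1 (ENSMUSG00000030102, chromosome 6, 108213096 to 108551109, plus strand), the IP3 receptor best known from neurons, rose with apigenin only under MSU by the test, and the difference between the apigenin responses did not pass (0.44 ± 0.45, adjusted p = 0.841). Its libraries had 5.07, 8.66 and 8.54 CPM with MSU and 14.5, 19.2 and 14.1 CPM with MSU and apigenin. The groups did not overlap, and the log2 fold change was 1.07 ± 0.32 with an adjusted p of 0.0136. It no longer passed in the fits that left out WT + MSU replicate 1 (adjusted p = 0.0702) or replicate 2 of WT + MSU + apigenin (0.0542). With library totals the log2 fold change was 0.41 with an adjusted p of 0.391, and with limma it was 0.22 with an adjusted p of 0.357. Without MSU, 14.0, 9.83 and 6.62 CPM stood against 17.7, 13.9 and 15.3 CPM, which overlap, with a log2 fold change of 0.63 ± 0.32 and an adjusted p of 0.141.

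Itpr2 (ENSMUSG00000030287, chromosome 6, 146108299 to 146502223, minus strand) was the most abundant IP3 receptor per length in WT BMDMs at rest. It had 23.5, 17.9 and 26.3 CPM in WT + MSU and 38.1, 24.4 and 46.0 CPM in WT + MSU + apigenin, which overlap. Apigenin gave a log2 fold change of 0.68 ± 0.27 with an adjusted p of 0.0431, and it passed in 18 of 31 alternative settings. The call was lost in 6 of 18 fits that left out 1 library, at adjusted p of up to 0.183, with filterByExpr (0.0797), with no filter (0.124) and with the compared groups alone (0.0956). With library totals the direction turned, at -0.0417. Without MSU, 20.7, 21.1 and 31.4 CPM stood against 32.2, 30.9 and 48.5 CPM, with a log2 fold change of 0.61 ± 0.27 and an adjusted p of 0.0743. With a replicate block in the 12 WT libraries this was 0.56 with an adjusted p of 0.0158, and with library totals it was -0.10 with an adjusted p of 0.739. Under MSU, CD38KO libraries had 13.3, 15.2 and 11.8 CPM, below every WT + MSU library, with a log2 fold change of -0.75 ± 0.27 and an adjusted p of 0.135, or -0.87 and 0.0495 with library totals.

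Stim1, the calcium sensor of the ER (ENSMUSG00000030987, chromosome 7, 102267806 to 102437319, plus strand), passed in no comparison, and 2 CD38KO libraries decided its spread. The CD38KO non-treated libraries had 5.45, 43.3 and 38.8 CPM and the CD38KO + MSU libraries 30.3, 32.9 and 3.58 CPM. Replicate 1 of the former and replicate 3 of the latter thus lay at 375 and 279 counts, where the other CD38KO libraries had 2382 to 3292 counts. Without the first of these, the log2 fold change of CD38KO against WT at rest went from -0.23 ± 0.67 to 0.26 ± 0.59. In WT, 36.5, 35.7 and 30.5 CPM at rest stood above 26.1, 15.8 and 19.6 CPM with MSU, without overlap. The log2 fold change of -0.74 ± 0.67 had an adjusted p of 0.625, and a fit of those 6 libraries alone gave -0.74 ± 0.22 with an adjusted p of 0.108. For apigenin under MSU, at 40.3, 21.8 and 38.3 CPM, the log2 fold change was 0.71 ± 0.67 (adjusted p = 0.381), and with a replicate block in the 12 WT libraries it was 0.70 with an adjusted p of 0.0274.

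Orai1, the pore of the store-operated calcium channel (ENSMUSG00000049686, chromosome 5, 123015074 to 123030456, plus strand), was the channel gene that fell with apigenin. WT non-treated libraries had 28.7, 29.3 and 12.3 CPM and WT + apigenin libraries 5.15, 7.82 and 9.27 CPM. With MSU the libraries had 9.96, 17.2 and 21.3 CPM without and 4.65, 6.16 and 6.81 CPM with apigenin. All 6 apigenin libraries lay under every other WT library. The log2 fold changes were -1.66 ± 0.51 (adjusted p = 0.0134) and -1.46 ± 0.50 (adjusted p = 0.0218). The first was lost without WT + apigenin replicate 1 (adjusted p = 0.0560), and the second without the third WT + MSU library (0.0783) or the first with MSU and apigenin (0.0744). With the groups of the treatment tag the second was -1.12 with an adjusted p of 0.0675, and with WT replicates 1 and 2 it was -1.33 with an adjusted p of 0.0870. In WT replicate 3 alone, with 1 library per group, the first was -0.41 and the second -1.65. In CD38KO the gene spread widely, with 13.6, 29.2 and 12.4 CPM without and 30.3, 9.07 and 37.3 CPM with MSU, and no comparison there passed.

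**Figure D5:**
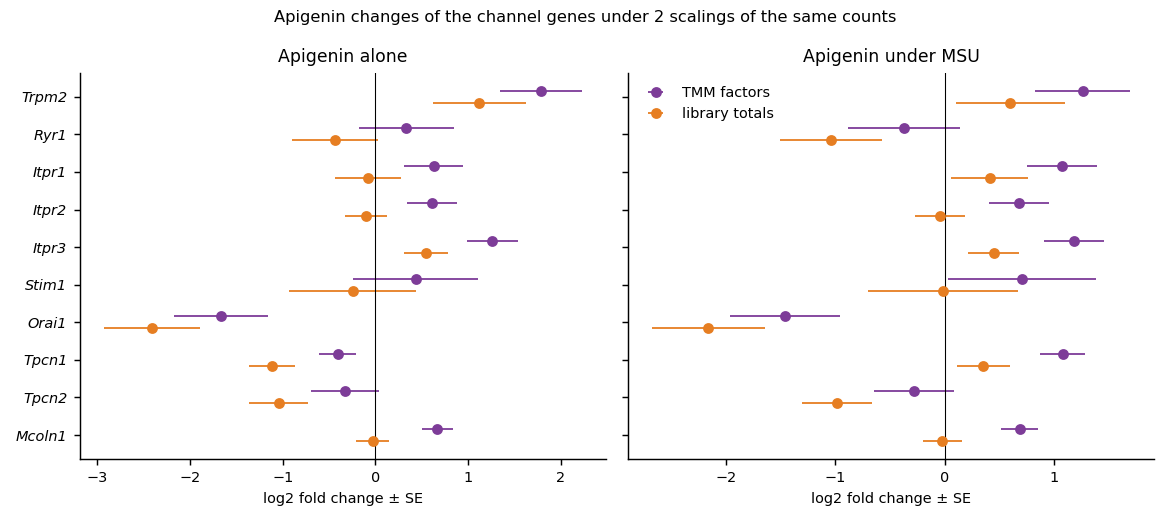
Log2 fold change with its SE for apigenin alone and apigenin under MSU, for the 10 channel genes, with TMM factors and with library totals. Every gene sits lower with library totals, Orai1 is negative under both scalings, and Mcoln1 moves from 0.67 and 0.68 to -0.0280 and -0.0219.

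The apigenin changes depended on the scaling of the libraries. Scaling by library totals shifted the median log2 fold change of all tested genes by -0.69 for apigenin alone and by -0.71 under MSU, and 9.93% and 15.9% of the passing genes were then higher, against 44.6% and 45.5% with TMM. Relative to that median, Mcoln1 was higher by 0.69 with either scaling for apigenin alone. On the unshifted scale of library totals, Itpr3 was higher by 0.54 (adjusted p = 0.0702) and 0.45 (0.122) and Trpm2 by 1.12 (0.0962) and 0.60 (0.374), while Orai1 was lower, at -2.41 (0.00119) and -2.16 (0.00215). Tpcn2 then passed as lower, at -1.04 (adjusted p = 0.0132) and -0.99 (0.0161), and Tpcn1 for apigenin alone at -1.11 (0.00152). With TMM, Tpcn1 for apigenin alone had a log2 fold change of -0.41 ± 0.20 and an adjusted p of 0.104, and with a replicate block in the 12 WT libraries it was -0.44 with an adjusted p of 0.0446. Marker sums moved with apigenin too. Without MSU the 8 macrophage markers summed to 19255 to 23732.8 CPM in WT non-treated and to 47006 to 61377.9 CPM with apigenin, and the 5 megakaryocyte markers to 1602 to 2904 CPM and to 4289 to 6347 CPM. The 6 fibroblast markers summed to 574.3 to 2643 CPM and to 1526 to 6116 CPM. All markers of these 3 lists were detected, but the megakaryocyte sum was mostly Pf4, at 1033 to 6226 CPM over the 18 libraries. Itga2b reached at most 2.99 CPM, Gp1ba 0.973 CPM and Gp9 0.491 CPM. The highest macrophage marker was Lyz2, at 6946 to 52155 CPM. The part of these markers, of the mitochondrial share and of the TMM factors in the apigenin results was not tested.

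Among the 18 libraries, log2 levels of Itpr2 and Itpr3 correlated at r = 0.878 and those of Orai1 and Mcoln1 at r = -0.869, over libraries that share the apigenin groups. Outside the channels, Itpr3 was most like Pdia6, an ER protein disulfide isomerase (r = 0.952), and Itpr2 most like Cd81, a tetraspanin (r = 0.919). Tpcn1 was most like Gdpd5, a glycerophosphodiester phosphodiesterase (r = 0.928), Orai1 like Mfsd4b3 (r = 0.845), Tpcn2 like Spg21 (r = 0.747) and Stim1 like Slc43a2, an amino acid transporter (r = 0.883). The likeness of Stim1 rested in part on its low libraries, since Spearman's rho was 0.598.

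Of 146 genes on 11 lists for the surrounding calcium pathways, 111 were tested in the FPKM-filtered fit. MSU in WT raised 9 and lowered 9 of them (16.2%, beside 7.02% of all genes) and MSU in CD38KO raised 5 and lowered 5 (9.01%, beside 3.17%). With library totals these were 4 higher and 11 lower, and 2 higher and 4 lower. Apigenin raised 40 and lowered 20 without MSU (54.1%, beside 50.8% of all genes) and raised 40 and lowered 23 under MSU (56.8%, beside 58.8%), shares close to those of all genes. With library totals 14 were higher and 45 lower without MSU, and 18 higher and 46 lower under MSU. Of all genes, 6154 and 6841 then passed, and 9.93% and 15.9% of those were higher. CD38KO against WT raised 4 and lowered 2 at rest (5.41%, beside 4.91%) and raised 5 and lowered 3 under MSU (7.21%, beside 4.43%).

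Among the partners of NAADP and lysosomal calcium, MSU raised Mcoln2, a TRPML1 relative that is induced in activated macrophages, from 50.4 ± 7.86 to 146.8 ± 2.26 CPM in WT (log2 fold change 1.54 ± 0.32, adjusted p = 0.0120). Apigenin under MSU lowered it to 36.7 ± 5.73 CPM (-2.00 ± 0.33, adjusted p = 0.000127). Of the 14 tested genes on that list, apigenin alone raised 4 and lowered 6, beside 50.8% of all genes that passed, and with library totals 2 were higher and 8 lower. Among the store-operated genes, Cracr2b, a calcium-binding regulator of ORAI1, fell with MSU in WT from 20.3 ± 9.32 to 5.48 ± 1.74 CPM (-1.88 ± 0.36, adjusted p = 0.00681) and was higher again with apigenin under MSU, at 27.9 ± 3.28 CPM (2.35 ± 0.36, adjusted p = 8.07e-05). Orai3, a paralogue of Orai1, fell with apigenin from 44.7 ± 7.62 to 13.5 ± 3.26 CPM (-1.73 ± 0.24, adjusted p = 4.61e-05).

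Of 10 tested ER store proteins, 8 rose with apigenin without MSU and 8 under MSU, where 50.8% and 58.8% of all genes passed in either direction. Their median log2 fold changes were 1.27 and 1.31 beside -0.02 and -0.05 over all genes. With library totals 7 were higher and 0 lower without MSU, and 6 higher and 1 lower under MSU, with medians of 0.58 and 0.60 beside -0.72 and -0.76 over all genes. Calr, the calcium-buffering chaperone calreticulin, rose from 975.3 ± 111.0 to 3225 ± 913.1 CPM (1.73 ± 0.21, adjusted p = 2.04e-05), and Pdia6 from 283.8 ± 42.9 to 1012 ± 255.4 CPM (1.83 ± 0.23, adjusted p = 2.27e-05). Of the 10 tested genes of IP3 production and removal, 2 rose and 2 fell with apigenin alone (0 higher and 5 lower with library totals), and Itpkb, a kinase that removes IP3, fell from 77.9 ± 5.02 to 19.1 ± 6.26 CPM (-2.03 ± 0.21, adjusted p = 5.61e-06).

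Among genes named from the lists, Bst1, Mcub and Rcn1 differed between the genotypes both without and with MSU. Bst1, which encodes the other mammalian ADP-ribosyl cyclase and lies beside Cd38, was higher in CD38KO at rest, at 47.5 ± 3.94 against 21.5 ± 1.92 CPM (1.15 ± 0.13, adjusted p = 0.000309), and under MSU, at 41.9 ± 1.25 against 17.0 ± 0.445 CPM (1.30 ± 0.13, adjusted p = 0.000175). Apigenin also raised it, to 72.6 ± 0.860 CPM (1.76 ± 0.13, adjusted p = 1.17e-06). Mcub, a subunit that lowers calcium uptake by the mitochondrial uniporter, was higher in CD38KO at rest, at 102.4 ± 10.2 against 25.9 ± 5.68 CPM (1.99 ± 0.22, adjusted p = 0.000236), and under MSU, at 77.6 ± 12.4 against 14.7 ± 2.97 CPM (2.40 ± 0.22, adjusted p = 7.39e-05). Rcn1, a calcium-binding protein of the ER, was lower in CD38KO in both, with log2 fold changes of -1.89 ± 0.37 (adjusted p = 0.00568) and -1.48 ± 0.36 (adjusted p = 0.0331). The 6 fibroblast markers were also lower in CD38KO, at no more than 316.4 CPM against at least 574.3 CPM in WT, and their part in these differences was not tested.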

How the data were processed

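Poly(A) RNA of the 18 BMDM libraries was sequenced as stranded libraries. The authors deposited whole-number counts per gene and FPKM values, which they normalised for gene length and depth, and the tools listed by the submitters are HISAT2, StringTie, cutadapt, FastQC and edgeR, with versions and genome build not given in the sources used here. All columns were matched to a library (0 unmatched). The length implied by count and FPKM was 1.11 to 1.12 times the exon bases of GENCODE M21 in all 10 channel genes. A further table of the authors' own log2 ratios was not used.

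Counts of 12025 genes, those with 3 or more libraries at an FPKM of 1 or higher, were fitted with edgeR 4.0.16 (R 4.3.3, TMM, 1 quasi-likelihood fit of 6 groups). Genes below it were taken from a fit with filterByExpr (17865 genes). A gene passed at a Benjamini-Hochberg adjusted p under 0.05. The SE is the size of the log2 fold change divided by the square root of F, and a 95% interval is the log2 fold change ± 1.96 SE. Such an interval takes a normal spread and is narrower than the F test implies. CPM correlations used log2(CPM + 0.5). Total counts of 51058336 or more limit only the lowest genes, and counting error is smaller than the spread between replicates. No replicates were copies (chi-square per gene of 99.9 to 715.4). Alternatives were other scalings and filters, DESeq2 1.42.0, limma 3.58.1 on log2(FPKM + 0.5), groups alone, a replicate block, single libraries left out, the treatment-tag groups and WT replicates split by Ifi202b. Fits were tested on simulated data.

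Libraries with the same replicate number tended to deviate together in the WT comparisons. Correlations were 0.0809 to 0.540 for MSU in WT and 0.227 to 0.625 for MSU with apigenin. They were 0.266 to 0.584 for apigenin alone and 0.142 to 0.436 for apigenin under MSU. Different numbers reached up to 0.335, 0.346, 0.366 and 0.0217 in the same order, so the ranges overlapped in all but the last. This is a hint from the data and not from the labels, so blocked values stand beside results they change. Members and gene lists were chosen with earlier results of these data known. Genes named from the lists were up to 2 per direction, list and comparison with a log2 fold change of at least 1 in size and groups that did not overlap, and, for the 7 channels past the FPKM filter, 1 of the 2 most correlated genes.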

Additional observations from a re-analysis of the deposited data

Results flagged for a closer look

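The MSU response of Tpcn1 differed between WT BMDMs with and without apigenin by the test of the difference itself. On the log2 scale the interaction was 1.49 ± 0.29, with an adjusted p of 0.0218 (edgeR). It passed in 21 of 31 alternative settings. The threshold was missed with library totals (adjusted p = 0.0603, edgeR) and by limma (0.0506). Tpcn1 was lower with MSU by -1.40 ± 0.21 without apigenin and stood at 0.08 ± 0.20 with it.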

How the results depend on the processing

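Tpcn1 passed for MSU in WT in every setting except WT replicate 3 only, which left 0 of the 7 filtered genes. For MSU in CD38KO the count was 0 with the compared groups alone, with WT replicate 3 only and with a log2 fold change of at least 1 as well, and 0 to 1 when single libraries were left out. For apigenin alone it stayed at 3 with library totals and with limma, but in part for other genes. Itpr3 and Mcoln1 no longer passed there, and Tpcn1 (-1.11 and -1.01) and Tpcn2 (-1.04 and -0.90) passed as lower. The count was 5 with a replicate block in the WT libraries (an alternative added after seeing the data) and 2 to 5 without single libraries. Under MSU it was 2 with library totals, with limma and with WT replicate 3 only, 3 with WT replicates 1 and 2 and with the fold threshold, and 3 to 5 without single libraries. CD38KO under MSU reached 1 with library totals. The interaction with apigenin passed in 0 genes with library totals, limma, no filter, WT replicate 3 only and WT replicates 1 and 2, and in 0 to 1 without single libraries. Directions turned for Mcoln1 with apigenin alone (-0.0280 with library totals, -0.00672 with limma) and under MSU (-0.0219 with library totals), and for Itpr2 under MSU (-0.0417 with library totals, -0.0171 with limma), where the median of all genes shifted. Itpr2 with apigenin alone, which did not pass, also turned with library totals (-0.10) and with limma. The cause of the other changes was not tested. Over all tested genes, DESeq2 passed 1431 against 844 with edgeR for MSU in WT, 986 against 381 for MSU in CD38KO, 980 against 590 and 1271 against 533 for CD38KO without and with MSU, 122 against 7 for MSU with apigenin and 639 against 157 for the interaction with apigenin. The replicate block over all 18 libraries kept the count of 3 for apigenin alone and changed no other call. Below an FPKM of 1, Trpm2, Ryr1 and Itpr1 rested on 33 to 1156 counts per library.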
